A study of Mus musculus with 4 samples.

Results

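Histones package DNA into chromatin, and the replication-dependent histone genes are those that supply the new histones each time a cell copies its genome. They were taken here as the genes whose symbols begin with Hist1h, Hist2h, Hist3h or Hist4, which gave 67 of the 31053 genes in the count matrices. The 67 genes encode the linker histone H1 (6 genes), which binds DNA between nucleosomes, and the core histones H2A (18 genes), H2B (18 genes), H3 (12 genes) and H4 (13 genes), around which DNA is wound. Their transcripts were counted in single invariant natural killer T (iNKT) cells, a T cell lineage with a nearly fixed antigen receptor that recognises lipids presented by CD1d. The cells came from the thymus of untreated C57BL/6 mice, labelled wildtype, and of untreated Hivep3-/- mice, which lack the zinc finger protein HIVEP3 and were backcrossed to C57BL/6, all 8 to 9 weeks old. Cells were sorted by binding to PBS57-loaded CD1d tetramer, and CD44low and CD44high cells were put together in equal parts, so the sort set part of every share of cells below. Each of 4 droplet 5′ libraries held the cells of 1 mouse, with 2 mice per genotype. Values for the 4 mice are given in the order C57BL/6 replicates 1 and 2 and then Hivep3-/- replicates 1 and 2.

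Replication-dependent histone genes lie in clusters, are transcribed strongly while DNA is being copied, and are driven by NPAT under the control of cyclin E and CDK2. Most of their mRNAs carry no poly(A) tail. The 3′ end is cut after a short stem-loop that is bound by SLBP, and the mRNA is broken down when DNA synthesis ends. Some of these genes also make polyadenylated mRNA, above all in cells that have left the cell cycle. The 5′ kit starts cDNA synthesis from an oligo-dT primer, so the counts favour RNA with a run of A residues, and neither the tail nor the 3′ end is read. Early iNKT cells divide after selection, and most of the mature iNKT cells of the thymus are at rest.

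The stem-loop was looked for in the annotated transcripts, because it is the element that sets these genes apart. Of the 67 genes, 46 had a transcript with a histone stem-loop of 16 bases, against 86 of the 55450 genes of the annotation (0.155%). In the following lines the 4 loop bases are in capitals and the stem of 6 bases on either side is in lower case. The first form was shared by 26 genes of the H1, H2A, H2B and H3 families, Hist1h2ap and Hist1h2ao among them. The second was found in 7 H4 genes, the third in 6 genes of the H1, H2B and H3 families (Hist1h3c among them), and the fourth and the fifth in 2 H4 genes each.
H1, H2A, H2B and H3 genes: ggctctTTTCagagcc
H4 genes: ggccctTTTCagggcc
Hist1h3c and others: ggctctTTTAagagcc
Hist1h4i and Hist2h4: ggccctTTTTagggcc
Hist1h4j and Hist1h4b: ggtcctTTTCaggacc
The other 3 forms were each seen once, in Hist1h4a, Hist1h3g and Hist2h2ac. No such element was found in the annotated transcripts of 21 genes. A polyadenylation signal followed the stem-loop within the annotated transcript of 17 genes.

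Hist1h2ap and Hist1h2ao, which the genotype results below treat together, are near copies, and so are their promoters. Hist1h2ap lies at chr13:21833026-21833507 on the minus strand and Hist1h2ao at chr13:21810465-21810944 on the plus strand of GRCm38, each with 1 exon. Their annotated transcripts, 482 and 480 bases long, share an identical run of 452 bases. Hist1h2ap has 30 bases before that run and Hist1h2ao has 28 bases after it. RefSeq gives the following promoter windows (GRCm38.p6, from 250 bases before to 50 bases after the RefSeq start), in which the first 200 bases of the Hist1h2ap window and the last 200 of the Hist1h2ao window are the same. CCAAT, read on either strand, is in capitals. Hist1h2ag, a further H2A gene that was called between dividing and non-dividing cells and, by genotype, in S-led cells alone, is shown for comparison.
Hist1h2ap, chr13:21833426-21833725, minus strand: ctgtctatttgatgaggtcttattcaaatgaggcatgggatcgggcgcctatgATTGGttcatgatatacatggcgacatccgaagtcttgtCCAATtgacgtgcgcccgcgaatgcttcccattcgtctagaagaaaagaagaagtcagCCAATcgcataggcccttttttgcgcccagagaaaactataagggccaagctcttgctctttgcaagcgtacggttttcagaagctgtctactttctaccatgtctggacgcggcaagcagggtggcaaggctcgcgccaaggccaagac
Hist1h2ao, chr13:21810117-21810416, plus strand: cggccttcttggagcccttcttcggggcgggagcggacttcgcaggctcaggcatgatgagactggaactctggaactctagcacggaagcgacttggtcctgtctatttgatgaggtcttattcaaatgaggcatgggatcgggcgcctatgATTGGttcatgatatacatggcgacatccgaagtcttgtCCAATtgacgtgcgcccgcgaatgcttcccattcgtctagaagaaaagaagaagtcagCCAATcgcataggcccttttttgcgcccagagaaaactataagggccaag
Hist1h2ag, chr13:22042900-22043199, minus strand: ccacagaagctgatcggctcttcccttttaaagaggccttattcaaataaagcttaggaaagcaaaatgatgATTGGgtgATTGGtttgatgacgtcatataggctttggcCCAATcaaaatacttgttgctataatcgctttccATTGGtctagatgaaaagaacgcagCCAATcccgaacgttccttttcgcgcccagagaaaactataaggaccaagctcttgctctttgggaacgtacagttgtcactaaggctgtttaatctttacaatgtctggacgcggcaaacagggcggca

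A promoter window was found for 62 of the 67 genes. CCAAT, the box bound by the factor NF-Y, was present on either strand in 53 of them (85.5%), against 37.4% of all 32851 windows. It was in the windows of all 6 H1, 18 H2A, 16 H2B and 10 H3 genes, and in 3 of 12 H4 genes. TATAAA was in 35 windows (56.5%, against 13.6% of all windows). ATTTGCAT, the octamer bound by OCT factors, was in 13 (20.97%, against 1.74%), namely in 7 of 18 H2A and 6 of 16 H2B windows and in none of the H1, H3 or H4 windows. None of the 3 motifs contains another, and a match describes these letters and not a bound site.

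The 4 libraries held 31381738 to 48291764 UMIs (unique molecular identifiers, 1 for each captured RNA molecule) over 4243 to 8374 barcodes, of which 3651 to 7231 cells per library were kept, and any 2 libraries shared 18 to 43 barcodes. The T cell gene Cd3e was detected in 98.2% to 99.8% of the kept cells of each library. Hivep3 itself was counted at 38.5, 36.4, 101 and 68.0 CPM (UMIs per 1000000 UMIs of a library or, below, of a class of its cells), and a 5′ count does not tell whether the disrupted stretch of the transcript was present, so it checks neither label. C57BL/6 replicate 1 stood apart in sex: it had 324 CPM of Xist and 0 UMIs of 4 Y-linked genes, while the other 3 libraries had up to 0.731 and 104 to 161. Sex, replicate and that mouse's other features cannot be told apart. Labels give no batch, and p-values measure the spread between these mice only.

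Of the 67 genes, 65 had at least 1 UMI and 64 were detected in all 4 libraries. Hist1h2ba and Hist1h2aa, which are known as testis forms of H2B and H2A, had 0 UMIs, which allows up to 3 counts in a library, and Hist1h1t, the testis H1, had 2. Counts per gene were very unequal. Across all barcodes the 67 genes had 334841 UMIs, of which Hist1h2ap alone, an H2A gene, had 185304 (55.3%), and the 5 genes with most UMIs had 69.4%. There were 39 genes with over 1000 UMIs and 8 with fewer than 100. H2A genes took 73.3% of the UMIs, and H1, H2B, H3 and H4 genes took 7.65%, 6.15%, 6.47% and 6.42%. By position, 96.3% of UMIs belonged to the 54 genes of the large Hist1 cluster (chr13:21715763-23934851), 3.16% to the 10 genes of Hist2 on chromosome 3, 0.249% to the 2 genes of Hist3 on chromosome 11 and 0.255% to Hist4h4 on chromosome 6. Copies limit what a single gene's count means: 61 of the 67 genes shared at least 1 stretch of 90 bases with another gene, and in 27 more than 50% of such stretches were shared. For those genes the authors' counting could drop or move reads, and the count of any 1 of them is uncertain.

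Cells were called dividing or non-dividing without the use of any histone gene. Each kept cell was thinned to 2000 UMIs, and the UMIs of 30 S phase and 40 G2/M phase genes (Mcm2, Pcna, Mki67, Top2a and others) were summed. A cell with 8 or more was dividing, one with 0 to 2 non-dividing, and one with 3 to 7 lay between and entered neither class. This gave 724, 274, 240 and 369 dividing cells and 4751, 2762, 3574 and 3100 non-dividing cells in the 4 mice. The cut runs through a continuum, since 214 of the 1607 dividing cells sat exactly at 8 and 257 cells sat at 7. Dividing cells were 10.8%, 7.70%, 5.31% and 9.02% of the cells, a difference of -2.06 percentage points in Hivep3-/- that was within the spread (exact permutation test, two-sided, p = 0.667; the smallest possible with 2 mice against 2 is 0.33).

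Summed over the 67 genes, histone RNA was more than 10 times as abundant in dividing cells. The sum in dividing cells was 57.1, 58.6, 44.4 and 77.5 UMIs per 10000 UMIs in the 4 mice, and in non-dividing cells it was 4.66, 3.82, 4.34 and 4.35. The lowest dividing value lay far above the highest non-dividing one, and the ratio within a mouse was 12.3, 15.3, 10.2 and 17.8. The difference was 55.1 ± 13.6 UMIs per 10000 (mean ± SD, n = 4). A large part was Hist1h2ap, at 27.5, 37.5, 29.7 and 55.8 in dividing against 0.824, 0.868, 1.22 and 1.43 in non-dividing cells. The other 66 genes gave 29.6, 21.2, 14.7 and 21.7 against 3.84, 2.95, 3.12 and 2.92. In a sum over cells, fewer cells with histone RNA and less of it per cell cannot be told apart. Cells that lay between the classes had 8.34, 6.26, 5.10 and 5.44.

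Gene by gene, nearly every histone gene that could be tested was higher in dividing cells. Of 59 tested, 55 were called and all 55 were higher (edgeR quasi-likelihood test with mouse as a block, Benjamini-Hochberg adjusted p under 0.05 over all genes). Of all genes tested 58.9% were called and 29.3% were called higher. The median log2 difference (dividing over non-dividing) was 2.96 over the 59 genes and -0.03 over all 11085 genes. All 16 H2B and all 10 H3 genes tested were called, with 13 of 15 H2A, 12 of 13 H4 and 4 of 5 H1 genes. Medians by family were 4.02 for H2A, 3.61 for H3, 3.07 for H1, 2.80 for H2B and 1.88 for H4. The Hist1 cluster had 49 of 50 called and a median of 3.55, and the Hist2 cluster had 5 of 7 and 1.16.

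**Figure D1:**
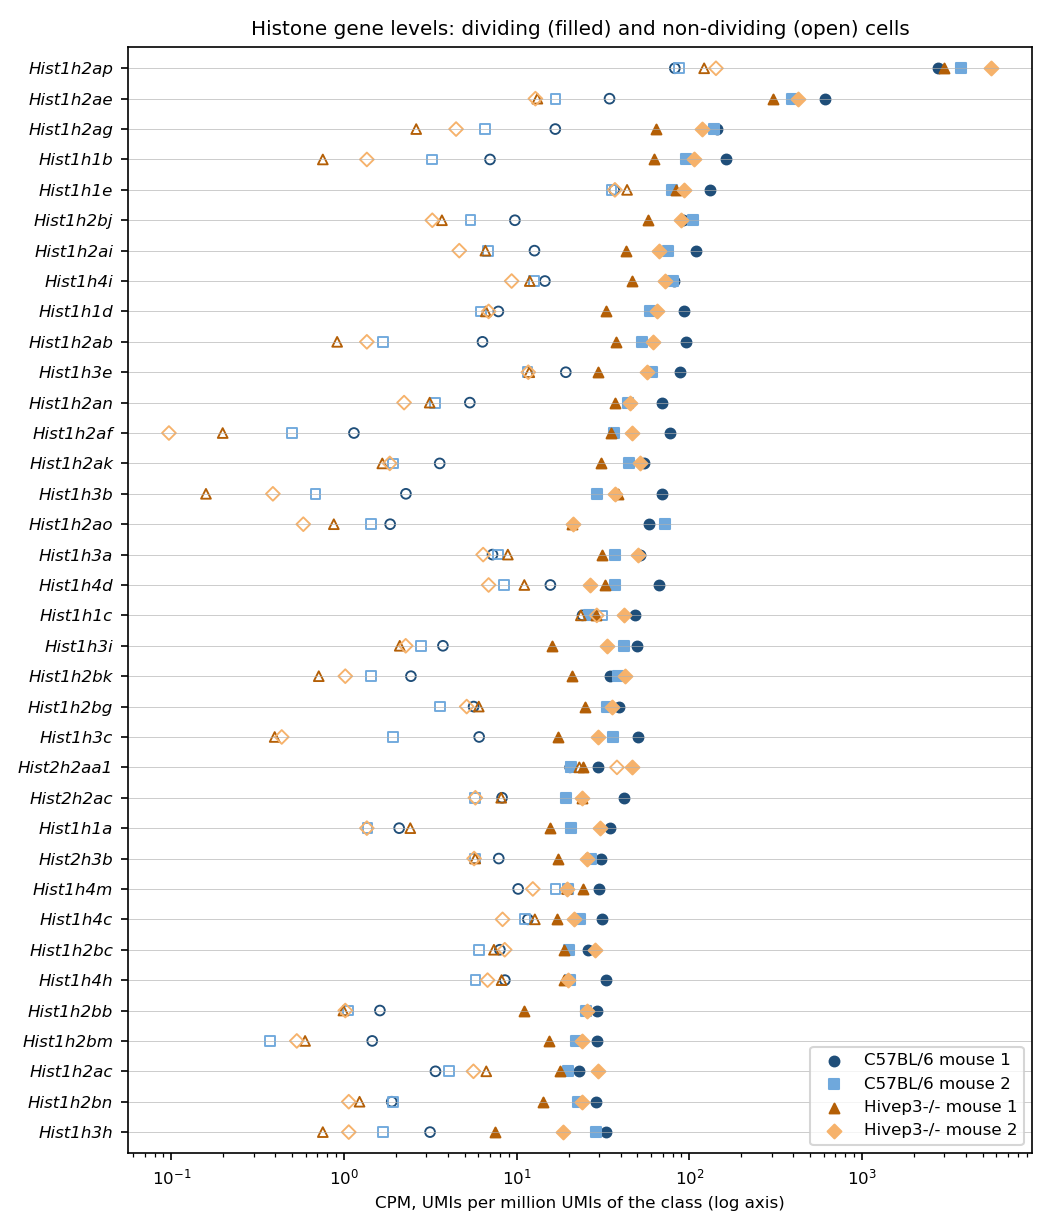
Level of each of the 36 histone genes that reached a mean of 20 CPM in dividing cells (y axis, gene names; x axis, CPM, log scale), with 1 point per mouse, filled for dividing and open for non-dividing cells. Hist1h2ap sits near 2747 to 5575 in dividing cells, and for Hist1h1c and Hist2h2aa1 the filled and open points overlap.

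Hist1h2ap showed the highest level of all members. It stood at 2747, 3745, 2970 and 5575 CPM in dividing cells, against 82.4, 86.8, 122 and 143 in non-dividing cells. The classes did not overlap, and the log2 difference was 5.02 (SE 0.142, edgeR adjusted p = 6.63e-08). Hist1h2ae, another H2A gene (chr13:23570517-23571220, minus strand), was at 613, 392, 304 and 427 against 34.5, 16.8, 13.2 and 12.8, a log2 difference of 4.48 (SE 0.132, adjusted p = 7.6e-08). Hist1h2af changed most on the log2 scale, by 6.59 (SE 0.254, adjusted p = 2.76e-07). Its non-dividing count was only 29, 8, 5 and 2 UMIs, so the size of that change rests on few molecules. Hist1h2ag rose from 16.7, 6.53, 2.62 and 4.46 to 145, 140, 64.4 and 118 CPM, without overlap and by 4.02 (SE 0.251).

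The H1 genes did not behave alike. Hist1h1b, the linker histone H1.5, was at 163, 96.0, 62.7 and 107 CPM in dividing cells and at 7.01, 3.23, 0.754 and 1.36 in non-dividing cells, a log2 difference of 5.18 (SE 0.263, adjusted p = 1.34e-06). Hist1h1a (3.72) and Hist1h1d (3.07) were also called. Hist1h1e, the linker histone H1.4, rose less, from 36.7, 35.5, 43.6 and 37.1 to 131, 79.2, 83.3 and 93.6, which is 1.27 (SE 0.139, adjusted p = 9.74e-05). Hist1h1c, the linker histone H1.2, was at 48.3, 26.3, 28.8 and 41.9 against 24.1, 31.1, 23.5 and 29.1. The values of Hist1h1c overlapped between the classes, and the difference of 0.37 (SE 0.175) did not pass (adjusted p = 0.0992).

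Among H3 genes, Hist1h3b changed most, at 69.1, 29.4, 38.8 and 36.9 CPM against 2.28, 0.684, 0.159 and 0.388 (log2 difference 5.63, SE 0.309). All its dividing values lay above its non-dividing ones. Hist1h3c followed a like course (4.05, SE 0.378), while Hist1h3e, at 19.3, 11.6, 11.8 and 11.7 in non-dividing cells, rose by 2.02 (SE 0.161). Hist1h4i, an H4 gene, was at 81.3, 80.7, 46.3 and 72.5 against 14.6, 12.6, 11.9 and 9.35 (2.46, SE 0.143). Hist1h4m was at 29.99, 19.8, 24.2 and 19.6 against 10.2, 16.8, 19.6 and 12.4, which is close to overlap, and its difference of 0.67 (SE 0.215) passed with an adjusted p of 0.026. Of the H2B genes, Hist1h2bm (4.81) and Hist1h2bk (4.51) changed most, and Hist2h2be (0.65, adjusted p = 0.0446) least.

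The 3 other genes that were not called lie outside the Hist1 cluster. Hist2h2aa1, an H2A gene, was at 29.5, 20.5, 24.2 and 46.5 CPM in dividing and 20.4, 20.5, 23.1 and 38.1 in non-dividing cells (log2 difference 0.18, SE 0.107, adjusted p = 0.179). It was called higher with no upper gene limit (0.54, adjusted p = 0.000707), with dividing from 12 gate UMIs (0.53, 0.00511) and in cycling-like clusters (0.99, 5.95e-05). Hist4h4 had 7.04, 3.103, 7.83 and 5.63 against 4.10, 4.35, 7.70 and 4.99 (0.15, SE 0.217, adjusted p = 0.583). It was called higher in cycling-like clusters (0.65, adjusted p = 0.0264). Hist2h2aa1 and Hist4h4 both overlapped between the classes. Hist2h2ab had 26, 13, 8 and 6 UMIs in dividing cells, and its difference of 0.96 (SE 0.368) had an adjusted p of 0.0514. Hist1h1c, Hist2h2ab or both were also called higher under some other settings. As a description, the 14 tested genes with a polyadenylation signal after the stem-loop had a median difference of 2.02, the 27 with a stem-loop and no signal 3.80, and the 18 with no annotated stem-loop 3.55. Genes with over 50% shared stretches had a median of 3.63 (23 genes) and the others of 2.54 (36 genes).

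Non-dividing cells were not free of histone UMIs. At an equal depth of 2000 UMIs, 53.0% of non-dividing cells held at least 1 UMI of the 67 genes and 80.5% of dividing cells did. Without thinning the shares were 82.7% and 96.8%, at median depths of 5543 and 13290 UMIs. A count of 10 or more of 2000 was reached by 31.2% of dividing and 0.0916% of non-dividing cells. The median was 3 of 2000 in dividing and 1 in non-dividing cells, and the highest cell had 140. Whether histone UMIs in non-dividing cells came from those cells or from free RNA in the droplets was not tested. The sum followed the gate genes: pooled over the mice it was 4.11 UMIs per 10000 in cells with 0 gate UMIs, 5.78 with 3 to 4, 10.4 with 8 to 11, 48.4 with 12 to 20 and 146 with 21 or more.

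Within dividing cells the histone sum was highest where S phase and G2/M phase transcripts were found together. Dividing cells were called S-led where at least 2 of every 3 gate UMIs were from the S phase list (466, 162, 185 and 236 cells), G2/M-led where as many were from the G2/M list (126, 74, 24 and 63 cells), and mixed otherwise (132, 38, 31 and 70 cells). The sum was 35.0, 29.7, 15.0 and 40.2 UMIs per 10000 in S-led cells, 121, 133, 193 and 175 in mixed cells and 70.1, 79.1, 78.2 and 96.1 in G2/M-led cells. The order S-led, G2/M-led, mixed held in each mouse, and the 3 classes did not overlap between mice. The classes also differed in their number of gate UMIs, which the sum followed. A count of 12 or more was reached by 253, 87, 85 and 129 S-led cells. It was reached by 107, 33, 31 and 69 mixed and 80, 50, 17 and 48 G2/M-led cells. The part of this number in the order of the classes was not tested. In bins of the S phase share, pooled over the mice, the sum was 72.1 at 0% to 20%, 105 at 20% to 40%, 145 at 40% to 60%, 100 at 60% to 80% and 16.7 at 80% to 100%. The last bin held 839 of the 1607 dividing cells.

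**Figure D2:**
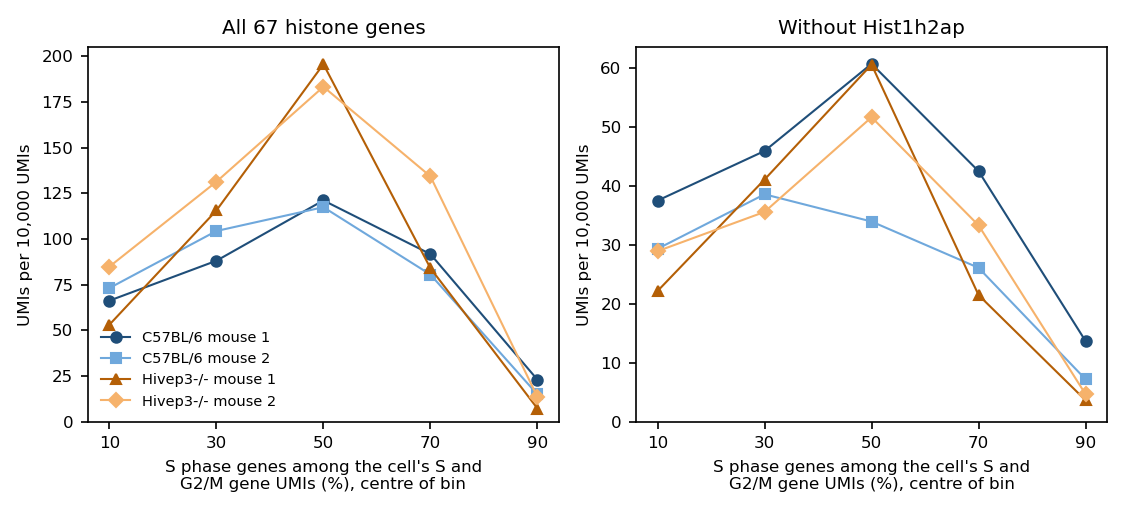
Summed histone UMIs per 10000 UMIs (y axis) in dividing cells binned by the share of gate UMIs from the S phase list (x axis, percent), with 1 line per mouse, for all 67 genes and for the 66 without Hist1h2ap. The middle bin, 40% to 60%, reaches 121, 117, 196 and 183 in the 4 mice, and the last bin, 80% to 100%, lies at 23.0, 14.9, 7.21 and 13.6.

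Of 54 genes tested, 50 were lower in S-led than in G2/M-led cells and none was higher (24.9% of all genes were called and 12% were called lower), with a median log2 difference of -1.21. All 14 H2A and all 14 H2B genes tested were among the 50. Hist1h2ap was at 1612, 1834, 939 and 2956 CPM in S-led, 6265, 9306, 13646 and 12661 in mixed and 3153, 4758, 4840 and 6588 in G2/M-led cells. Its difference of S-led to G2/M-led cells was -1.40 (SE 0.147, adjusted p = 1.4e-06). The largest falls were in H2B genes, Hist1h2bb (-2.15, SE 0.201) and Hist2h2be (-2.12, SE 0.478). The 4 genes not called were Hist1h3a (0.29), Hist1h4a (0.06), Hist1h1a (-0.37) and Hist1h3d (-0.80). Hist1h3a differed from most in that S-led cells, at 51.9, 33.2, 26.4 and 39.8, and G2/M-led cells, at 37.2, 38.8, 20.6 and 32.4, overlapped.

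Comparisons with the mixed class were added after the data were seen. Against S-led cells, 52 of 55 genes were higher in mixed cells (8.73% of all genes were called and 5.34% were called higher), with a median of 1.90. Hist1h2ae rose from 328, 177, 84.3 and 192 to 1440, 835, 1338 and 984 CPM (2.59, SE 0.21). Hist1h1e rose from 88.6, 41.4, 39.8 and 45.6 to 259, 157, 298 and 221 (2.05, SE 0.167). Against G2/M-led cells, 24 of 51 genes were called (15.7% of all genes, 9.29% higher and 6.45% lower), or 15 by DESeq2 (6.16% of all genes). Of these 24, 23 were higher in mixed cells, led by the linker histones Hist1h1a (1.76, SE 0.195) and Hist1h1b (1.35, SE 0.106) and the H2A gene Hist1h2an (1.20, SE 0.15). Hist1h2bc alone was lower, at 30.3, 17.8, 47.3 and 44.3 in mixed against 55.1, 40.6, 51.5 and 69.5 in G2/M-led cells (-0.70, SE 0.186, adjusted p = 0.00811). Hist1h2bc, an H2B gene, stood at 17.3, 10.8, 9.73 and 11.1 in S-led cells, below both other classes in every mouse.

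The genes that make and handle histone mRNA and load histones were followed beside them, with 24 genes fixed as a list and none used by the gate. In dividing against non-dividing cells 17 of 23 tested were higher (29.3% of all genes) and none was lower, with a median log2 difference of 1.28. Asf1b, a histone chaperone, rose by 4.73 (SE 0.136), Chaf1a and Chaf1b, subunits of the chromatin assembly factor CAF-1, by 5.05 and 2.89, Ccne1, cyclin E1, by 4.35, Nasp, a chaperone of H3 and H4, by 1.88, and Hat1, which acetylates new H4, by 1.84. Of 22 tested, 12 were higher in S-led than in G2/M-led cells (12.8% of all genes) and none was lower, with Chaf1b at 2.97 (SE 0.172), Ccne1 at 2.19 and Slbp, the stem-loop binding protein, at 1.29. Between mixed and S-led cells 3 of 23 were called, all higher in mixed cells (Asf1b, Eri1 and Slbp, against 5.34% of all genes). Of the histone variants outside the clusters, 11 genes that are made throughout the cell cycle or serve special sites, 8 of 10 tested were higher in dividing cells, where 29.3% of all genes were. H2afz (2.39, SE 0.0745) and the centromeric Cenpa (2.80, SE 0.145) were among them, and H3f3b (-0.08) and H1f0 (0.17) were not called.

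The genotype comparison asked whether these genes differ where Hivep3 is disrupted. Their sum did not separate the genotypes. In dividing cells the mean was 57.9 ± 1.09 UMIs per 10000 in C57BL/6 and 60.9 ± 23.4 in Hivep3-/- (SD, n = 2 each), and 1 Hivep3-/- mouse was the lowest and the other the highest of the 4. In non-dividing cells the genotypes differed by 0.105 UMIs per 10000. Without Hist1h2ap the Hivep3-/- mean in dividing cells was 7.19 lower, with 14.7 and 21.7 against 29.6 and 21.2, and the mice overlapped. In mixed cells the sum was 127 ± 8.25 in C57BL/6 and 184 ± 13.4 in Hivep3-/-, without overlap. This came with Hist1h2ap, at 62.6, 93.1, 136 and 127 UMIs per 10000, since the other 66 genes gave 58.6, 39.8, 57.01 and 47.9.

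Among single genes, Hist1h2ao was the 1 histone gene called between genotypes in dividing cells. It was at 58.3, 72.3, 21.01 and 21.3 CPM, so that both Hivep3-/- mice lay below both C57BL/6 mice. The log2 difference (Hivep3-/- over C57BL/6) was -1.77 (SE 0.195, edgeR adjusted p = 0.00238). It was 1 of 59 tested (3.81% of all genes were called and 1.79% were called lower), a count near the share of all genes called lower. Of the 59, 23 had an unadjusted p under 0.05 (18% of all genes). Of the 59 genes, 53 had a negative and 6 a positive difference, and the median was -0.58 against 0.02 over all genes. The make-up of the dividing class differed as well, with more stage 0-like and fewer iNKT2-like cells in both Hivep3-/- mice. Of the dividing cells 3.31%, 2.19%, 26.7% and 17.6% lay in stage 0-like, 31.2%, 25.9%, 18.3% and 17.9% in iNKT2-like and 45.4%, 44.2%, 31.2% and 48.0% in cycling-like clusters. Unnamed clusters held 20.3% of dividing cells, pooled over the mice. The part of this make-up in the differences was not tested. Without TMM scaling these medians were -0.43 and 0.17, with 10 positive differences, and Hist1h2ao was still the 1 gene called. Leaving out a mouse moved the count, always with Hist1h2ao among the genes and with a lone mouse assumed to vary like the others. With C57BL/6 replicate 2 left out 22 were lower (2.4% of all genes), and with Hivep3-/- replicate 2 left out 13 were (2.94%). With either of the other mice left out 2 were lower (1.83% without C57BL/6 replicate 1 and 1.21% without Hivep3-/- replicate 1). In all kept cells Hist1h2ao was again the 1 gene called of 61 (0.765% of all genes were called and 0.325% were called lower), at -2.12 (SE 0.26, adjusted p = 0.0265), which was lost without C57BL/6 replicate 1 (adjusted p = 0.106) or without Hivep3-/- replicate 1 (0.125). In non-dividing cells 0 of 56 were called by edgeR (0.668% of all genes), 18 had an unadjusted p under 0.05 (9.32% of all genes), and DESeq2 called 4 (2.06% of all genes). The median there was -0.38.

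**Figure D3:**
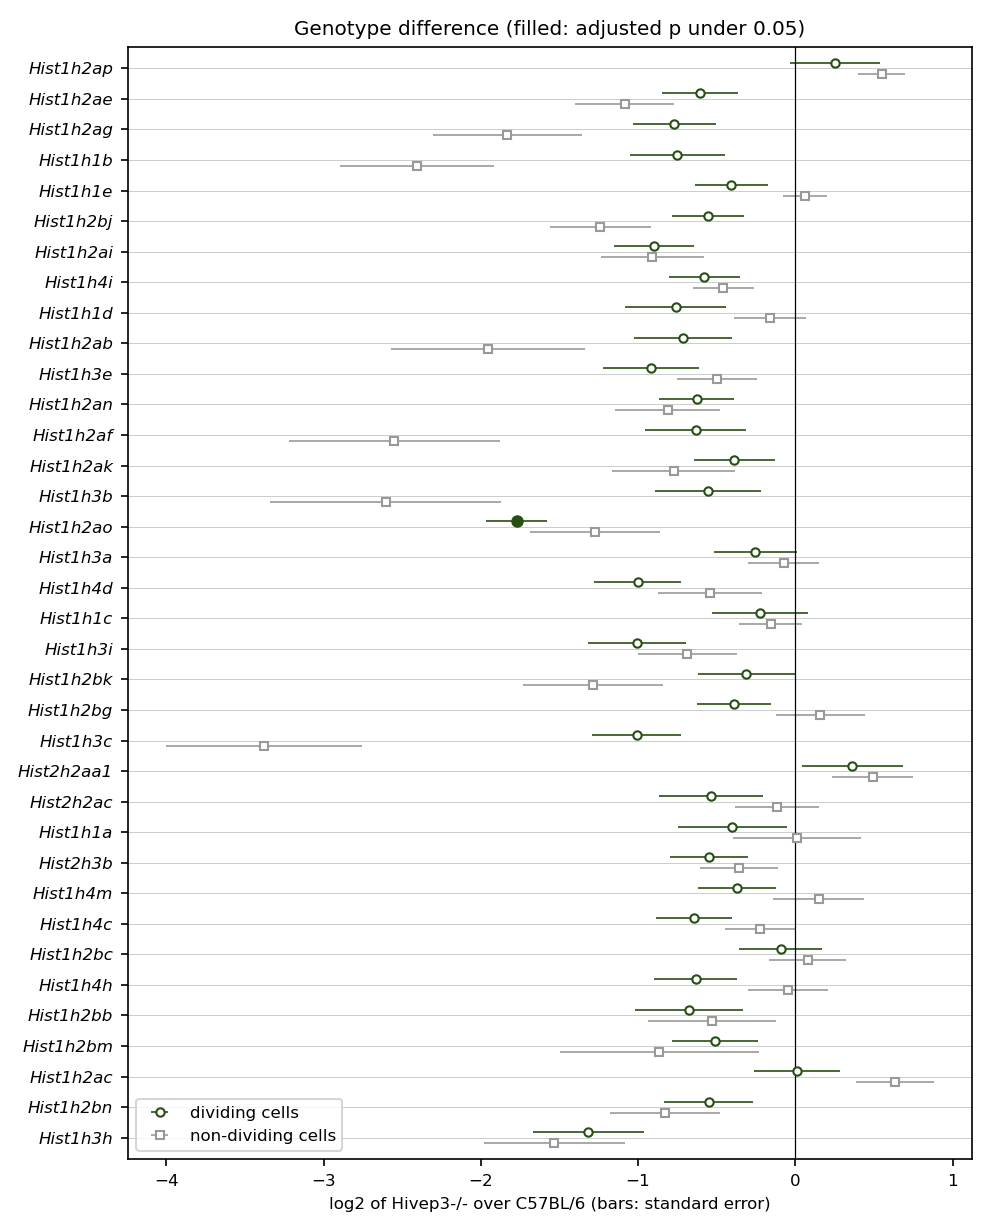
Log2 difference of Hivep3-/- over C57BL/6 (x axis; bars, standard error of the fit) for the 36 histone genes that reached a mean of 20 CPM in dividing cells (y axis), in dividing and non-dividing cells. Most points lie left of 0, and the filled marker, at -1.77 for Hist1h2ao in dividing cells, is the only one with an adjusted p under 0.05.

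Hist1h2ap, the near copy of Hist1h2ao, was not called in either class. Its log2 difference was 0.25 in dividing cells (SE 0.287, adjusted p = 0.715) and 0.55 in non-dividing cells (SE 0.151, adjusted p = 0.231), and it turned to -0.35 in dividing cells without Hivep3-/- replicate 2. Of the UMIs given to either gene, Hist1h2ao took 2.08% (exact binomial 95% interval 1.90% to 2.26%), 1.89% (1.69% to 2.12%), 0.702% (0.535% to 0.905%) and 0.380% (0.310% to 0.461%) in dividing cells, and the intervals cover counting error only. In non-dividing cells it took 2.20%, 1.62%, 0.712% and 0.406%. The share was alike in the S-led (2.29%, 2.12%, 0.540% and 0.387%), mixed (1.94%, 1.78%, 0.748% and 0.397%) and G2/M-led cells (1.96%, 1.83%, 0.775% and 0.3329%) of a mouse. In every class both Hivep3-/- mice had a lower share than both C57BL/6 mice. The intervals of the C57BL/6 mice overlapped in dividing cells, and those of the Hivep3-/- mice did not. Because the transcripts are identical over 452 bases, how reads were split between the 2 genes was not tested, and the counts of both are uncertain. Taken as 1, they had 2806, 3818, 2991 and 5596 CPM in dividing cells, with overlap between genotypes.

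Genotypes were also compared within S-led cells, in a comparison added after the data were seen. There 5 of 53 genes were called, all lower in Hivep3-/- (4.09% of all genes were called and 1.93% were called lower), and the median was -1.07. Hist1h2ao was at 37.8, 39.8, 5.10 and 11.5 CPM (-2.31, SE 0.329, adjusted p = 0.00474). Hist1h2ag was at 96.0, 97.8, 19.5 and 41.5 (-1.78, SE 0.29, adjusted p = 0.00937). Hist1h2bj, the H2B gene that lies back to back with Hist1h2ag and shares 252 bases of its promoter window on the other strand, was at 61.9, 58.0, 26.9 and 31.4 (-1.19, SE 0.188, adjusted p = 0.00841). Hist1h4d (-1.63) and Hist1h2bb (-1.65) were the others, and for all 5 the genotypes did not overlap. With C57BL/6 replicate 2 left out 24 were lower (1.8% of all genes), with Hivep3-/- replicate 2 left out 17 (3.41%), and with C57BL/6 replicate 1 left out 3 (1.02%). In mixed cells 0 of 50 were called by edgeR and 0 by DESeq2 (1.56% of all genes by edgeR), 4 had an unadjusted p under 0.05 (12.6% of all genes), and the median was -0.02. S-led and mixed cells were not tested against each other for a genotype difference.

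A change of the genotype difference with division was called for few histone genes, a count near the share of all genes called. The interaction of genotype and division was called for 3 of 60 genes (3.07% of all genes, 1.7% with a positive sign), each further below C57BL/6 at rest than in dividing cells. Hist1h1b, at -2.40 in non-dividing and -0.75 in dividing cells, neither of them called, had an interaction of 1.60 on the log2 scale (SE 0.218, adjusted p = 0.00338), with 178, 52, 19 and 28 UMIs in non-dividing cells. Hist1h3c had 2.27 (SE 0.472, adjusted p = 0.0294) on 154, 31, 10 and 9 UMIs, and Hist1h3b 2.02 (SE 0.428, adjusted p = 0.0317) on 58, 11, 4 and 8 UMIs. C57BL/6 replicate 1, the mouse that also stood apart in sex, was the highest of the 4 in each. Without it the interaction of Hist1h3c (adjusted p = 0.214) and of Hist1h3b (0.365) was lost and that of Hist1h1b was kept (adjusted p = 0.0382). Hist1h3c was also lost without Hivep3-/- replicate 2 (0.129) and Hist1h3b without Hivep3-/- replicate 1 (0.148). Leaving out C57BL/6 replicate 1 left 1 gene called (1.63% of all genes), C57BL/6 replicate 2 gave 10 (2.66%) and Hivep3-/- replicate 2 gave 5 (3.23%).

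The limit on genes per cell (under 4100) took out cells rich in histone RNA, and unequally. It removed 78, 207, 252 and 179 cells, which held 13.1%, 56.98%, 60.2% and 48.6% of each library's histone UMIs and had 62.7, 88.7, 74.5 and 119 histone UMIs per 10000. Of the 716 cells, 600 would have passed as dividing. With them, the sum in dividing cells was 59.6, 80.3, 74.3 and 99.8, and without Hist1h2ap it was 31.4, 29.9, 25.9 and 29.3. Hist1h2ao remained the 1 gene called by genotype in dividing cells (2.83% of all genes were called lower), at 58.4, 95.7, 37.4 and 26.8 CPM, and the median over the genes went from -0.58 to -0.25, with 10 genes at an unadjusted p under 0.05 (20.6% of all genes). In S-led cells 10 were then called, all lower (2.64% of all genes).

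Gene lists made for other cell types had low sums in dividing cells. The 8 double positive thymocyte genes summed to 0.136 to 0.616 UMIs per 10000, and the 8 B cell genes to 0.548 to 0.799, with Ms4a1 at 0 in all 4 libraries. The 8 myeloid genes gave 1.70, 1.79, 5.24 and 5.12 and so moved with genotype, with C1qa at 0. Fcer1g, at 43.9, 56.6, 347 and 364 CPM, moved most, and Tyrobp was at 1.14, 3.58, 39.9 and 10.2. Both were also among the leading genes of cluster 3, which was called iNKT1-like. Lyz2 and Csf1r were each at 0.114 CPM in C57BL/6 replicate 1 and at 0 in the other mice. Cst3, at 121, 118, 136 and 136 CPM, was alike in all 4. The 12 iNKT1 genes, which mark the mature subset that makes interferon gamma, were at 7.78, 11.2, 42.5 and 21.5 in dividing cells and so moved with genotype as well. So did the 10 stage 0 genes, at 13.0, 10.98, 29.7 and 23.7, and the 10 iNKT2 genes, at 18.2, 15.7, 8.37 and 8.62. The part of these lists in the genotype differences was not tested.

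At rest, the histone sum was compared between iNKT subsets, and single genes between the stage 0-like and iNKT1-like cells. Cells were clustered without the histone genes, and clusters were named from fixed markers. Clusters 8 and 9 were called stage 0-like, the earliest stage (Cd24a, Itm2a, Lef1 and Egr2 among their leading genes). Cd8a and Cd8b1, which mark double positive thymocytes, were also among the leading genes of cluster 9. Others were called iNKT1-like, iNKT2-like and iNKT17-like, and cluster 6, counted as iNKT1-like, was led by interferon-response genes (Ifit3, Ifit1 and Isg15). In non-dividing cells the histone sum was 8.39, 7.41, 7.03 and 8.66 UMIs per 10000 in stage 0-like, 4.59, 3.87, 4.17 and 4.24 in iNKT1-like, 3.99, 3.14, 4.24 and 3.77 in iNKT2-like and 2.99, 2.60, 3.46 and 3.16 in iNKT17-like cells. Stage 0-like cells were above every other subset in each mouse, iNKT17-like cells were the lowest in each, and iNKT1-like and iNKT2-like cells overlapped. A large part of the excess of stage 0-like over iNKT1-like cells was Hist1h2ap, whose levels follow below and whose count is uncertain. With Hist1h2ap taken off on the same scale, the other genes still gave more in stage 0-like than in iNKT1-like cells in each mouse. What was left in stage 0-like cells also lay above the whole sum of iNKT17-like cells in each mouse. The level of Hist1h2ap in iNKT2-like cells is not given. The place of iNKT2-like cells in the order is therefore not shown for the other genes.

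Against iNKT1-like cells, 19 of 35 tested histone genes were called in stage 0-like cells, 10 higher and 9 lower (49.3% of all genes were called, 22.8% higher and 26.5% lower). These counts are near the shares of all genes. Without TMM scaling, which moved the median of all genes from -0.04 to 0.30, the split was 15 higher and 7 lower. Hist1h2ap was the main higher gene, at 280, 378, 349 and 458 against 82.0, 85.4, 104 and 123 CPM, without overlap (1.54, SE 0.0984, adjusted p = 1.01e-08). Hist3h2ba, an H2B gene of the Hist3 cluster that rose by 0.86 in dividing cells, was at 14.6, 28.7, 20.2 and 33.5 against 2.49, 2.55, 2.45 and 2.18 (2.94, SE 0.286, adjusted p = 8.76e-07). In the non-dividing iNKT2-like and iNKT17-like cells Hist3h2ba stood at 0 to 4.36, where the 0 was 1 iNKT17-like library, in which 3 UMIs would be 3.09 CPM. Hist1h2ag had the largest change (3.05, SE 0.426) on only 18, 3, 8 and 12 UMIs in stage 0-like cells. Hist1h2bc (1.86), Hist1h2bj (1.51), Hist1h1b (1.34), Hist1h2ae (1.19), Hist1h2ai (1.11), Hist1h2bg (0.92) and Hist1h2ac (0.85) were the other higher genes. Hist1h2bj had 14, 1, 8 and 9 and Hist1h1b 13, 2, 5 and 8 UMIs in stage 0-like cells, so their changes rest on few molecules too.

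**Figure D4:**
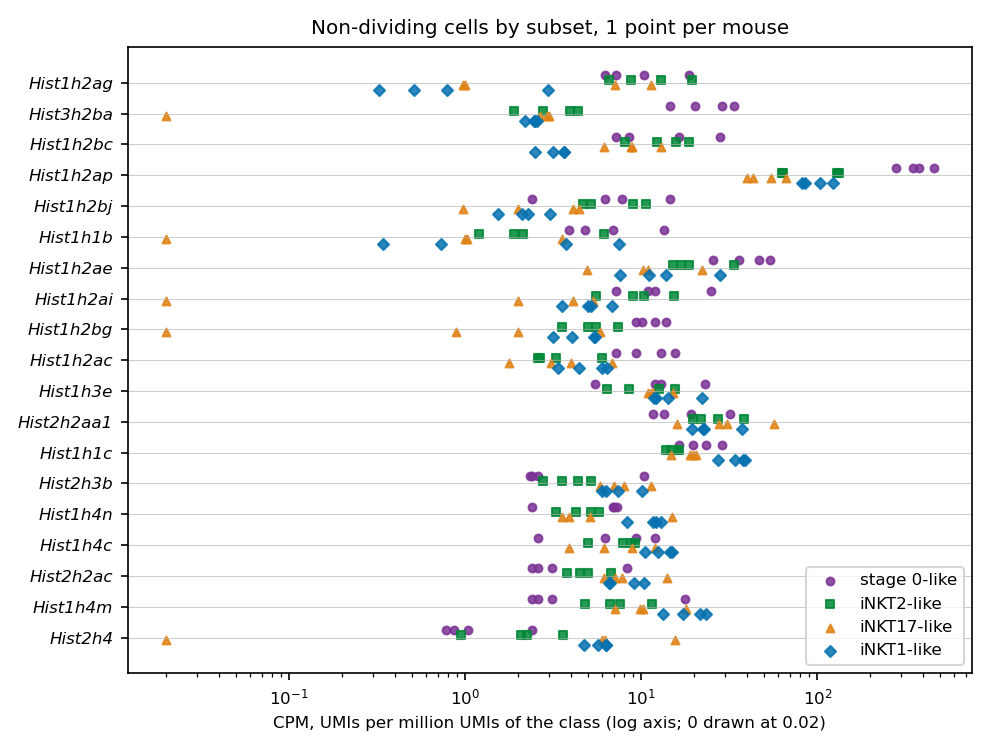
Level of the 19 histone genes called between non-dividing stage 0-like and iNKT1-like cells (y axis, gene names; x axis, CPM, log scale, with 0 drawn at the left edge), with 1 point per mouse for each of 4 non-dividing subsets. Hist1h2ap and Hist3h2ba are highest in stage 0-like cells, at 280 to 458 and at 14.6 to 33.5, and Hist1h1c lies at 27.1 to 38.9 in iNKT1-like and up to 28.7 in stage 0-like cells.

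The 9 lower genes held 3 of the H4 genes of Hist1 and 4 genes of the Hist2 cluster. Hist1h1c, the linker histone whose level did not pass the test of division, was at 19.8, 28.7, 16.3 and 23.2 in stage 0-like against 33.9, 38.9, 27.1 and 37.7 CPM in iNKT1-like cells (-1.03, SE 0.154, adjusted p = 6.54e-05). Each mouse was lower in stage 0-like cells, though the ranges overlapped. Hist2h4 had 1 UMI in each stage 0-like library against 66, 48, 100 and 78 in iNKT1-like cells (-2.81, SE 0.508, adjusted p = 0.000336), so the size of its change is poorly fixed. Hist1h4m (-1.84), Hist1h4c (-1.34) and Hist1h4n (-1.15) were the H4 genes of Hist1, and Hist2h2ac (-1.35), Hist2h3b (-1.13) and Hist2h2aa1 (-0.85) completed those of Hist2. Hist1h3e (-0.61, adjusted p = 0.0434) was the last. In Hist2h4, Hist1h4c, Hist1h4n, Hist2h2ac and Hist2h3b the stage 0-like counts were 1 to 10 UMIs per library, and in Hist1h4m they were 17, 1, 4 and 3.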

How the data were processed

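Single-cell RNA of sorted thymic iNKT cells was measured in 4 libraries, with groups and replicate numbers from the labels. The deposited values were raw UMI counts without normalization. Per the labels, Cell Ranger 3.1.0 and mm10 were used to make them, and Seurat 3.1.4 is also listed. For reads that match several genes, no source used here gives the treatment.

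Cells with at least 500 and under 4100 genes, at least 1000 UMIs and under 6% mitochondrial UMIs were kept, after the methods of the study. Cells of fewer than 2000 UMIs (502, 91, 82 and 75) could not be thinned and entered no class. The automatic threshold of Scrublet (scanpy 1.11.5, Python 3.11.15) marked 2, 1, 3 and 3 cells, too few to have worked, so doublets were left in. As an alternative the 5% of cells with the highest scores were removed. Clusters came from Seurat 5.3.0 in R 4.3.3 (2000 variable genes without the histone genes, T cell receptor segments, Hivep3 and sex genes; 30 components; RPCA; resolution 0.8). They were named "-like" from at least 3 fixed markers among their top 20 genes. Failing that, the type of highest mean marker level was used, a rule set after the data were seen. Unnamed clusters held 1.10% of non-dividing and 20.3% of dividing cells. The names were rebuilt here and can differ from those of the study.

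Cells are not replicates. Counts were summed per library and class and tested with edgeR 4.0.16 (filterByExpr, TMM, two-sided quasi-likelihood test, Benjamini-Hochberg over all genes, called under 0.05), with DESeq2 1.42.0 as an alternative, and the scripts were tested on simulated data. Levels are UMIs per 1000000 UMIs of a class (CPM), per molecule and not per length. Sums over the genes are described and not tested. Depth limits the precision, and the sums compared held from 291111 UMIs (G2/M-led cells of 1 mouse) to 45022744 UMIs (all kept cells of another).

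The histone genes, gene lists and tests were chosen with earlier results of these data known. The genes named are those with a mean of at least 20 CPM in dividing cells, any called gene, and at most 6 called genes of each other list by smallest p, and those outside this rule were named after their values were seen. The mixed-class comparisons and the genotype comparison in S-led cells were added after the data were seen. Positions are from GENCODE vM21 (GRCm38, the assembly of mm10), in which 31011 of 31053 gene identifiers were found. Shared stretches, stem-loops and promoter motifs were searched by exact match in its transcripts and in the RefSeq promoter windows.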

Additional observations from a re-analysis of the deposited data

Results flagged for a closer look

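The interaction term of the edgeR fit was called for 3 of 60 histone genes tested, where 3.07% of all genes were called. That count is near the share of all genes. For Hist1h3c and Hist1h3b the call was lost when some single mice were left out. The log2 value of the interaction was 1.60 for Hist1h1b, 2.27 for Hist1h3c and 2.02 for Hist1h3b. In non-dividing cells the single mice had 7.01, 3.23, 0.754 and 1.36 CPM of Hist1h1b, 6.06, 1.93, 0.397 and 0.436 of Hist1h3c, and 2.28, 0.684, 0.159 and 0.388 of Hist1h3b, and both Hivep3-/- mice were below both C57BL/6 mice in each.

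The cells removed for having 4100 or more genes entered no comparison of the report other than as an alternative, and they were rich in histone UMIs. They had 62.7, 88.7, 74.5 and 119 histone UMIs per 10000, against 4.66, 3.82, 4.34 and 4.35 in the non-dividing cells of the same mice. Their median depth was 21279 to 24198 UMIs in the 4 libraries, against 13290 in dividing cells. The part of depth or of doublets in these values was not tested.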

How the results depend on the processing

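Of the values recomputed under other settings for whole comparisons, 136 stayed close to the reported value and 42 moved. For single genes 2599 kept direction and call, 148 lost the call, 21 gained it and 4 changed sign. The last were Hist1h2ap between genotypes in dividing cells without Hivep3-/- replicate 2 (-0.35, and up to 0.66 with another mouse left out), Hist2h2aa1 between dividing and non-dividing cells with dividing from 5 gate UMIs (-0.11), and Hist4h4 there (-0.13) and without C57BL/6 replicate 1 (-0.15, and up to 0.27 with another mouse left out). The causes were not tested.

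Genotype counts were few and moved most. The share of all genes called is given beside the counts of single other settings, but not beside the ranges. The ranges therefore show how far a count moved and not whether it exceeded that of all genes. Called genes in all kept cells were 1, with DESeq2 9 (3.36%), with no low-count filter 29 (5.46%), and 0 to 4 with 1 mouse left out. In dividing cells they were 1, with DESeq2 4 (3.61%), with no low-count filter 20 (6.9%), with the highest doublet scores removed 2 (3.96%), and 2 to 22 with 1 mouse left out. In non-dividing cells they were 0, with DESeq2 4 (2.06%), with no low-count filter 12 (3.84%), and 0 to 6 with 1 mouse left out. The interaction gave 3, with no low-count filter 14 (4.84%), and 1 to 10 with 1 mouse left out. S-led cells gave 5, with no low-count filter 32 (6.53%), with no upper gene limit 10 (5.91%), with dividing from 5 or from 12 gate UMIs 3 each (3.19% and 2.83%), and 3 to 24 with 1 mouse left out. Mixed cells gave 0, with no low-count filter 2 (2.13%), with no upper gene limit 1 (2.77%), with dividing from 12 gate UMIs 1 (0.861%), and 0 to 1 with 1 mouse left out. Mixed against G2/M-led cells gave 24, with DESeq2 15 (6.16%) and with dividing from 12 gate UMIs 13 (13.2%).

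The comparison of dividing with non-dividing cells called 53 to 59 genes under all settings, S-led against G2/M-led 40 to 53, mixed against S-led 43 to 58, and stage 0-like against iNKT1-like 15 to 22. At the main setting 58.9%, 24.9%, 8.73% and 49.3% of all genes were called in these 4 comparisons. In the last the share of histone genes called was near that of all genes. The shares of all genes under the other settings are not given beside these ranges. The sum in dividing minus non-dividing cells was 55.1 UMIs per 10000, and 74.2 with no upper gene limit, 36.9 with dividing from 5 and 83.6 with dividing from 12 gate UMIs, 113 for cycling-like clusters, 18.6 without Hist1h2ap, and 25.9 without Hist1h2ap and with no upper gene limit. The genotype difference of the sum in dividing cells was 3.07, and 27.7 in cycling-like clusters, which leave out the unnamed cluster 10, led by Ccnb2, Cenpa and Cdc20.

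Same-numbered mice did not deviate together (Pearson r of deviations across genes 9e-04 in all kept, 0.0778 in dividing and 0.0449 in non-dividing cells), so they share only a number. With the replicate number as a block 1 gene was called by genotype in all kept, 1 in dividing and 1 in non-dividing cells, 4 in the interaction, 4 in S-led and 2 in mixed cells. The shares of all genes called with this block are not given, so these counts cannot be set against them.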

Other observations

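Dividing cells differed in histone RNA by the cluster in which they lay. Those in the cycling-like clusters (329, 121, 75 and 177 cells) had 99.8, 111, 125 and 140 histone UMIs per 10000. Dividing cells in the iNKT2-like clusters (226, 71, 44 and 66 cells) had 10.6, 8.15, 6.28 and 6.57, and those in the stage 0-like clusters (24, 6, 64 and 65 cells) had 4.39, 3.29, 4.36 and 4.04. The last were below the non-dividing stage 0-like cells of the same mice, at 8.39, 7.41, 7.03 and 8.66. Unnamed clusters held 20.3% of dividing cells, pooled over the mice, and are not among these values. Of those clusters, cluster 10 was led by Ccnb2, Cenpa and Cdc20, with 366, 136, 53 and 78 cells when no upper gene limit was set. The values by cluster are descriptions with no test. The gate read the same S and G2/M phase genes in all of them.

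H1f0, the replacement linker histone H1.0, was lower in the dividing cells of Hivep3-/- mice, at 17.1 and 26.7 CPM against 72.1 and 112 in C57BL/6 (log2 difference -2.18, SE 0.288, edgeR adjusted p = 0.00569). Its interaction with division was -1.24 (SE 0.174, adjusted p = 0.004), of opposite sign to that of Hist1h1b. Ccne1, cyclin E1, was at 72.6, 71.8, 50.2 and 48.4 (-0.71, SE 0.153, adjusted p = 0.0427). H1f0 and Ccne1 were the 1 gene of 10 variants and the 1 gene of 23 supply genes called by genotype in dividing cells, where 3.81% of all genes were called and 1.79% were called lower.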
